A study of Rattus norvegicus with 42 samples.

Results

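Neat1 knockout GH4C1 cells (Neat1 -/-, made with CRISPR-Cas9 and called KO) were compared at 34 h (T34) and at 10 h (T10) after a change of medium, with 3 libraries at each time. Neat1 is a long non-coding RNA. These 6 libraries were chosen by genotype and time alone, and are 6 of the 42 libraries of the series. The GH4C1 line is a rat somatolactotroph line, that is, of the pituitary cells that make growth hormone and prolactin, and it was grown in HamF10 medium with horse serum and fetal calf serum. The series sampled KO cells and untreated wild-type cells (WT) every 4 h from T10 to T34, with 3 RNA sequencing libraries for each genotype and time. All groups received the same fresh medium at 0 h to synchronise them. The labels do not say whether KO is 1 clone, whether the 3 libraries of a time came from separate cultures, or that WT cells went through a mock CRISPR-Cas9 step. P-values therefore measure the spread between these libraries, which may be technical.

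Neat1 RNA is the scaffold of paraspeckles, nuclear bodies that hold RNA-binding proteins such as NONO and SFPQ and can retain transcripts in the nucleus. Paraspeckles have been described as rhythmic in pituitary cells of this lineage. A change of serum-containing medium sets the circadian clocks of cultured cells to a common phase. T10 and T34 lie 24 h apart, at the same phase of a 24 h cycle, so the comparison asks which RNAs did not come back to their T10 level. The deposited tables name genes by Ensembl identifiers only, and 0 of the 13776 identifiers could be paired with a symbol here. Genes are therefore described as groups, with 4 printed by identifier, and neither Neat1, the pituitary marker genes, the pathways nor the promoter sequences were analysed here.

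The 3 KO T10 libraries held 49911019 to 55082845 counts and the 3 KO T34 libraries 49526707 to 60171327 counts. Within a time, pairs of KO libraries had a correlation of log2 CPM over genes of 0.990 to 0.993, with 178 to 221 genes more than 2-fold apart. CPM is the gene's count relative to the library total, scaled by TMM to correct for differences in composition. Between T10 and T34 the 9 pairs had correlations of 0.976 to 0.980, with 602 to 719 genes more than 2-fold apart. At T34, replicate 1 was further from the others than they were from each other, with a chi-square per degree of freedom of 33.8 and 27.6 against 10.3. The most abundant gene took 16.9% to 17.6% of all counts at KO T10 and 16.0% to 19.0% at KO T34. Over all KO libraries it took 15.8% to 19.0%, and over the WT libraries 0.0251% to 0.251%. KO and WT levels set side by side therefore rest on the scaling for composition. Among the libraries used below for comparison, WT T34 replicate 1 stood apart from the other WT libraries. With it, the coefficient of variation between replicates of KO and WT at T10 and T34 was 0.209, and without it 0.0927, against 0.0861 in the 6 KO libraries alone. Counts and differences that use it are given with and without it.

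Many RNAs of Neat1 knockout cells were at another level at T34 than 24 h earlier, mostly by small amounts. Of 13746 genes tested with edgeR on the 6 KO libraries alone, 7207 (52.4%) were called at an adjusted p under 0.05. At T34, 3574 genes (26% of those tested) were higher and 3633 (26.4%) were lower. This balance depends on the scaling, since TMM centres the fold changes. With library totals in its place, 58.5% of the called genes were higher, against 49.6% with TMM. The median absolute log2 fold change was 0.23 over all genes and 0.35 over the called genes. Of the called genes, 5610 (77.8%) changed by less than 1.5-fold. Called genes that changed 2-fold or more numbered 443 (3.22% of those tested), with 234 (1.7%) higher and 209 (1.52%) lower at T34. Only 37 changed 4-fold or more, 25 of them higher and 12 lower. Of these, 3 higher and 3 lower had a mean of at least 10 CPM, and the rest had low counts. When the test asked for a change beyond 1.5-fold, edgeR's glmTreat called 635 genes (4.62%), 304 higher and 331 lower.

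**Figure D1:**
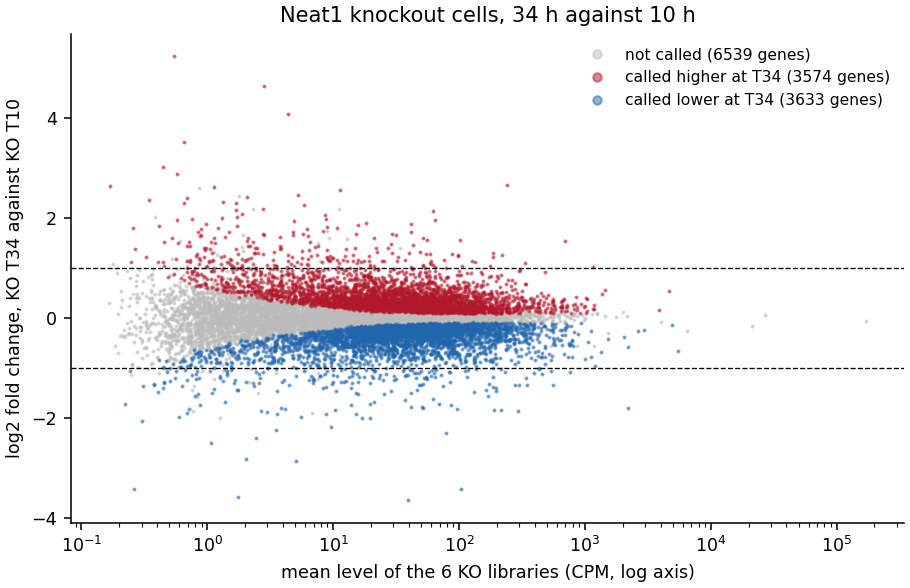
Log2 fold change of KO T34 against KO T10 for each of 13746 genes (vertical axis) by the mean level over the 6 libraries in CPM (horizontal log axis). Red and blue points are the 3574 genes called higher and the 3633 called lower, grey points the 6539 not called, and the dashed lines mark 2-fold. Most called genes lie between the dashed lines.

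The libraries of T10 and T34 did not overlap for most of the larger changes. The 3 T34 libraries all lay above, or all below, the 3 T10 libraries for 8269 of 13746 genes (60.2%), with T34 above T10 for 4156 (30.2%) and below it for 4113 (29.9%). Of the 443 called genes that changed 2-fold or more, 425 had no overlap. The same libraries chose those genes, so this count follows in large part from the choice. When each library was left out in turn, 6403 to 7194 genes were called.

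For many RNAs the level after 24 h could also be bounded near its start. For 9297 genes (67.6% of those tested), the 95% interval of the fold change lay within 1.5-fold in either direction, whether or not the gene was called. Among the 6539 genes not called, the interval lay within 1.5-fold for 4834 (73.9%) and within 2-fold for 5974 (91.4%). For the remaining genes that were not called, the interval reached beyond 2-fold.

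The larger changes were counted by abundance. Of those under a mean of 10 CPM, 160 were higher and 93 lower at T34. At 10 CPM and above, 74 were higher and 116 lower. Whether the direction depends on abundance was not tested. Fewer genes passed the test where counts were low. The share called was 17.0% of the 823 genes under 1 CPM, 33.1% of the 3588 at 1 to 10 CPM, 61.2% of the 7530 at 10 to 100 CPM and 70.6% of the 1764 in the next 10-fold range. Of the 41 genes above that range 63.4% were called. The share with a called change of 2-fold or more was 9.11% under 1 CPM, 4.96% at 1 to 10 CPM and 1.95% at 10 to 100 CPM. It was 2.32% in the next 10-fold range and 4.88% of the 41 genes above it.

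The changed genes moved a visible part of the RNA pool. Genes called higher held 20.8%, 21.1% and 20.7% of the counts in the T10 libraries and 26.2%, 28.0% and 27.5% in the T34 libraries. Genes called lower held 32.1%, 32.2% and 31.6% at T10 and 24.5%, 25.2% and 25.2% at T34. The 209 genes that fell by at least 2-fold made up 1.93% to 1.97% of each T10 library and 0.771% to 0.804% of each T34 library. The 234 genes that rose by at least 2-fold went from 0.357% to 0.363% up to 0.869% to 0.955%. These shares describe genes picked for their change. The 3 most abundant genes of the KO libraries did not pass the test, with log2 fold changes of -0.05, 0.06 and -0.16 and adjusted p of 0.55, 0.369 and 0.096 by edgeR.

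The 4 genes printed here have the highest and lowest fold changes of all called genes that averaged 10 CPM or more and had no overlap between the groups. They were chosen for their size, so their values in these 6 libraries describe and do not test. Levels are in CPM scaled over all 42 libraries, and fold changes come from the fit of the 6 KO libraries. ENSRNOG00000007319 had the largest rise. Its level was 74.3, 72.8 and 71.4 CPM in the 3 KO T10 libraries and 453, 446 and 474 CPM in the 3 KO T34 libraries. The groups were far apart and the libraries of a time nearly equal. The log2 change was 2.67 ± 0.04 (SE, n = 3 each; adjusted p 3.32e-11 by edgeR). The level stayed at 65.0 ± 2.03 CPM at T18 and 64.9 ± 2.83 CPM at T22 (SD, n = 3 each). At T26 it was 154, 79.8 and 159 CPM in replicates 1, 2 and 3, and at T30 it was 236, 451 and 449.7 CPM. The gene was thus flat to T22, and at T30 replicates 2 and 3 had reached the T34 level while replicate 1 had not.

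ENSRNOG00000005711 was low at T10, with 3.18, 3.86 and 3.82 CPM, and rose to 20.7, 20.96 and 21.5 CPM at T34. The log2 change was 2.55 ± 0.09 (SE; adjusted p 1.09e-08 by edgeR), and no library of one time came near those of the other. Its level was 4.57 ± 0.483 CPM at T14 and 4.92 ± 0.240 CPM at T22 (SD, n = 3 each). At T30 it was 8.33 CPM in replicate 1, against 20.2 and 19.6 CPM in replicates 2 and 3. This is the same order of the T30 libraries as for the first gene.

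ENSRNOG00000012772 fell from 207, 210.4 and 208 CPM at T10 to 17.0, 18.5 and 22.2 CPM at T34, a log2 change of -3.42 ± 0.08 (SE; adjusted p 7.95e-10 by edgeR). The mean of each time was lower than the one before. It was 188 ± 5.35 CPM at T14, 164 ± 4.08 CPM at T18, 126 ± 1.44 CPM at T22 and 118 ± 5.51 CPM at T26 (SD, n = 3 each). At T30 it was 106 CPM in replicate 1, 31.3 CPM in replicate 2 and 48.7 CPM in replicate 3.

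ENSRNOG00000006589 had the lowest fold change, and it rested on uneven libraries. Its level was 191, 42.3 and 9.55 CPM at T10 and 7.69, 5.35 and 6.05 CPM at T34. The T10 libraries spanned a far wider range than the T34 libraries, and the lowest T10 value lay close to the highest T34 value. The log2 change was -3.65 ± 0.83 (SE; adjusted p 0.00349 by edgeR), and it was -2.01 without KO T10 replicate 1. Single libraries at other times were also high for this gene, with 51.0 CPM at KO T14, 59.9 CPM at KO T26, 45.2 CPM at WT T18 and 40.4 CPM at WT T22.

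**Figure D2:**
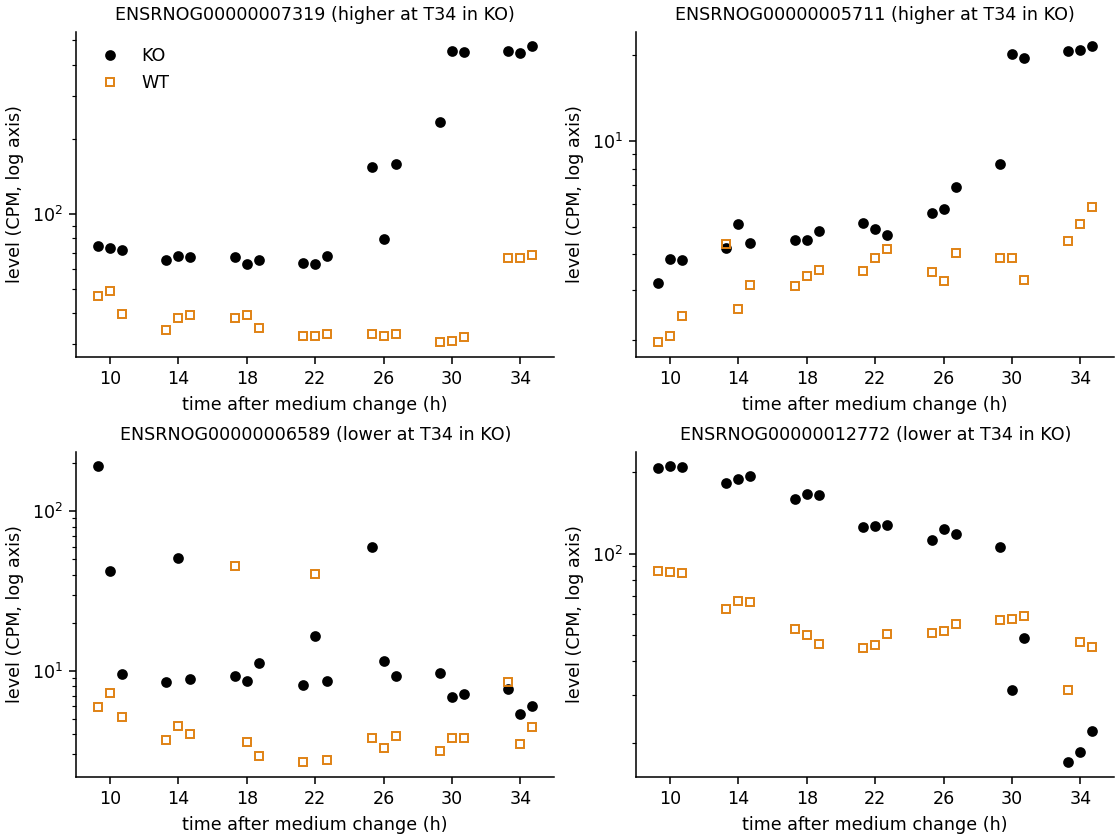
Level in CPM (vertical log axis) of the 4 genes at each time after the medium change (horizontal axis, h), 1 point per library, with the 3 replicates of a time set side by side. KO libraries are filled circles and WT libraries open squares. ENSRNOG00000007319 and ENSRNOG00000005711 rise in KO after T22, ENSRNOG00000012772 falls over the whole course and fastest after T26, and ENSRNOG00000006589 is high in single libraries.

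The 12 highest and 12 lowest fold changes chosen by the same rule are summarised together. The log2 fold changes ran from 1.65 to 2.67 among the 12 rising genes and from -3.65 to -1.79 among the 12 falling genes. In the KO libraries from T14 to T30, which the choice did not use, 12 of the 12 rising and 11 of the 12 falling genes were called in the same direction at T30 against T14 to T22, where 22.1% of all genes were higher and 20.1% lower. At T26, 3 and 5 of them were, against 3.42% higher and 3.31% lower of all genes.

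When the change took place was read from the other 15 KO libraries, which took no part in the choice of genes. The median level of the rising genes was nearly constant up to T22, and that of the falling genes drifted slightly down. Both moved further between T22 and T34, most of all between T26 and T30. Single genes moved earlier, as ENSRNOG00000012772 did. For the 234 genes that rose by at least 2-fold, the median log2 level relative to T14 to T22 was -0.02 ± 0.01 at T14 and 0.03 ± 0.01 at T22 (SD, n = 3 each). At T26 it was 0.18, 0.06 and 0.22 in replicates 1, 2 and 3, and at T30 it was 0.34, 1.03 and 0.94. The T30 libraries thus split, with replicate 1 nearer to the T26 libraries and replicates 2 and 3 nearer to the 1.26 ± 0.01 of T34 (SD, n = 3). For the 209 genes that fell by at least 2-fold, the median was 0.04 ± 0.03 at T14, 0.01 ± 0.01 at T18 and -0.05 ± 0.02 at T22 (SD, n = 3 each). At T26 it was -0.18, -0.05 and -0.19, and at T30 -0.30, -0.96 and -0.85. Falling and rising genes kept the same order of the libraries, with T26 replicate 2 behind replicates 1 and 3, and T30 replicate 1 behind replicates 2 and 3. The median of all genes stayed within 0.02 of 0 in every KO library.

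**Figure D3:**
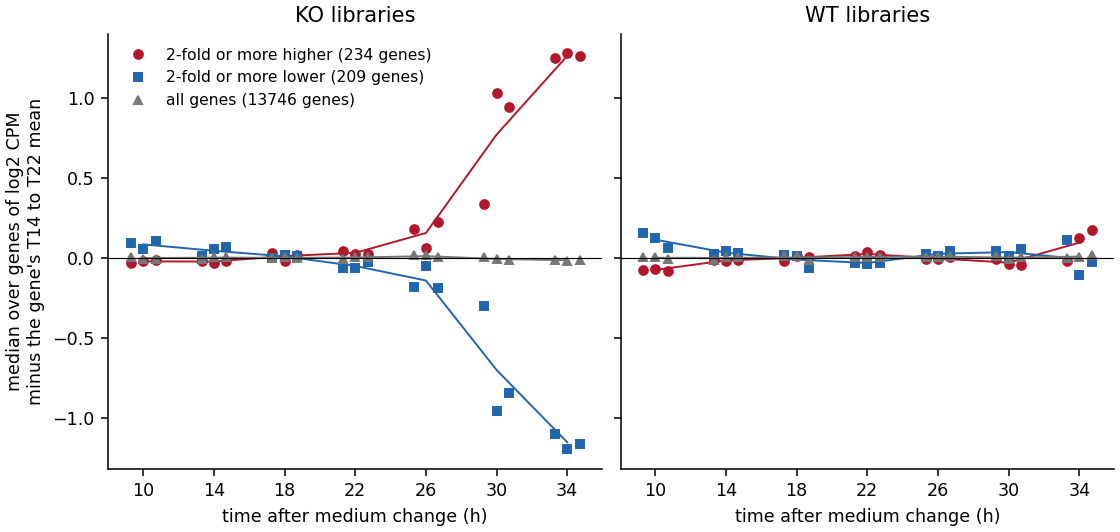
Median over genes of log2 CPM minus the gene's own mean at T14 to T22 (vertical axis) by time after the medium change (horizontal axis, h), for KO libraries (left) and WT libraries (right). Each point is a library, lines join the means of the 3 replicates, and the sets are the 234 genes that rose and the 209 that fell by at least 2-fold in KO, with all 13746 genes in grey. In KO the sets part after T22 and reach 1.26 and -1.15 at T34, and in WT they stay near 0.

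Tests on those 15 libraries gave the same timing. Among T14, T18 and T22, 46 of 13743 genes (0.335%) differed by edgeR, and the unadjusted p was under 0.05 for 1441. The 46 included 2 of the 234 genes that rose by at least 2-fold (0.855%) and 12 of the 209 that fell (5.74%). DESeq2 called 245 there, and edgeR called 16, 23 and 30 without replicates 1, 2 and 3 of T22. At T26, 926 genes (6.73%) differed from T14 to T22, 471 (3.42%) higher and 455 (3.31%) lower. That count fell to 207 without T26 replicate 1 and to 261 without T26 replicate 3, and it was 1848 without T30 replicate 1, whose spread enters the fit. At T30, 5814 genes (42.3%) differed, 3043 higher and 2771 lower, and 6820 (49.6%) differed without T30 replicate 1.

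The genes that differed at T30 were to a large extent those that differed at T34. Of the 3574 genes called higher at T34, 2375 (66.5%) were called higher at T30 and 10 lower, against 22.1% of all genes called higher at T30. Of the 3633 called lower at T34, 2243 (61.7%) were called lower at T30 and 30 higher, against 20.1% of all genes. In the other direction, 78.1% of the genes higher at T30 and 80.9% of those lower at T30 were called the same way at T34 against T10. Of all genes tested there, 26% were called higher and 26.4% lower. These comparisons share no library, and all of their libraries come from the KO line. Over 13742 genes, which are not independent replicates, the change at T30 and the change from T10 to T34 had a Pearson correlation of 0.71 and a Spearman correlation of 0.77.

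**Figure D4:**
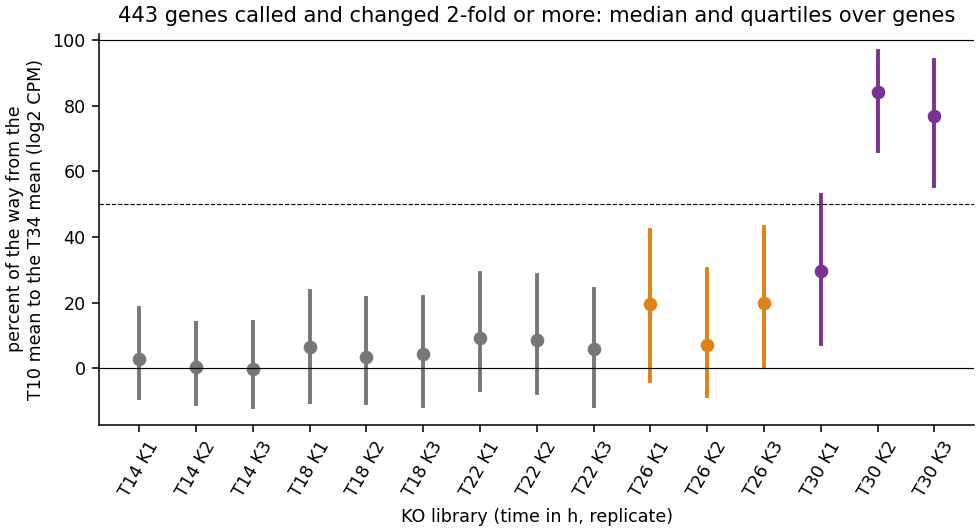
Position of each KO library between the T10 mean (0) and the T34 mean (100) on the log2 CPM scale (vertical axis, percent of the way), for the 443 genes called with at least 2-fold change. Points are medians over genes and bars join the lower and upper quartiles, for the 15 libraries from T14 to T30 (horizontal axis, K1 to K3 are replicates 1 to 3). Medians run from -0.119 to 9.10 percent up to T22, and T30 replicates 2 and 3 reach 84.2 and 76.9 percent. The T10 and T34 libraries that set the scale also chose the genes.

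The position of each library between T10 and T34 put sizes to this. Both ends of that scale come from the libraries that chose the genes, and the choice tends to widen the gap. The percentages therefore describe and do not test. Over the 443 genes with at least 2-fold change, the median gene had gone 2.88% of the way in T14 replicate 1 and 9.10% in T22 replicate 1, the furthest of the libraries up to T22. In T26 it had gone 19.7%, 7.19% and 19.8% in replicates 1, 2 and 3. In T30 it had gone 29.7%, 84.2% and 76.9%. In T30 replicate 1, 125 of the 443 genes were past the midpoint between their T10 and T34 means, against 372 and 349 in replicates 2 and 3. From the group means, 134 of the 234 rising genes (57.3%) were past the midpoint from T30 on, and 71 (30.3%) only at T34. For the 209 falling genes the numbers were 123 (58.9%) and 62 (29.7%). The other rising and falling genes had passed it by T26. At T34, the last time sampled, every gene is past it by definition. The T30 mean includes replicate 1, which was behind replicates 2 and 3, so these counts depend on that library.

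In wild-type cells over the same 24 h fewer genes passed the test, and the difference between the genotypes was tested directly. With WT T34 replicate 1, WT T34 against T10 called 24 of 13740 genes (0.175%) by edgeR, 6 (0.0437%) higher and 18 (0.131%) lower, with an unadjusted p under 0.05 for 1755. Without it, 2959 of 13752 (21.5%) were called, 1313 (9.55%) higher and 1646 (12%) lower. KO T34 against T10 called 6403 to 7194 genes when 1 of its libraries was left out. The WT test held an outlying library or 1 library fewer, so the counts may also differ through the tests' sensitivity, which was not compared. The change in KO minus the change in WT was called for 1418 of 13774 genes (10.3%) by edgeR, 722 (5.24%) more positive and 696 (5.05%) more negative in KO. Without WT T34 replicate 1 it was called for 4888 (35.5%), 2495 (18.1%) more positive and 2393 (17.4%) more negative in KO. It was called without WT T34 replicate 2 for 2727, and without 1 of the KO T10 libraries, KO T34 replicates 2 and 3 or WT T10 replicates 1 and 2 for 834 to 888. Among the 234 genes that rose by at least 2-fold in KO, the difference from WT was called in the same direction for 113 (48.3%), and for 163 (69.7%) without WT T34 replicate 1. Among the 209 that fell, it was called in the same direction for 109 (52.2%), and for 151 (72.2%) without it. The KO libraries that chose these genes enter this difference too, so the counts describe and do not test the set.

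WT values of the same genes are independent of the choice, and 228 of the 234 and 206 of the 209 were tested there without WT T34 replicate 1. For the 234 genes that rose in KO with a median log2 fold change of 1.27, the median in WT was 0.20 without WT T34 replicate 1 and 0.23 with it. For the 209 that fell with a median of -1.25 in KO, it was -0.21 without it and -0.12 with it. Without WT T34 replicate 1, 68 of the rising genes (29.1%) also rose in WT and 15 (6.41%) fell, against 9.55% and 12% of all genes in WT. Of the falling genes, 73 (34.9%) also fell in WT and 17 (8.13%) rose. Over all genes the changes of KO and WT had a Pearson correlation of 0.18 without WT T34 replicate 1 and of 0.03 with it. In WT the medians of both sets stayed between -0.11 and 0.17 in all 3 libraries of T34, and between -0.04 and 0.05 at T30.

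**Figure D5:**
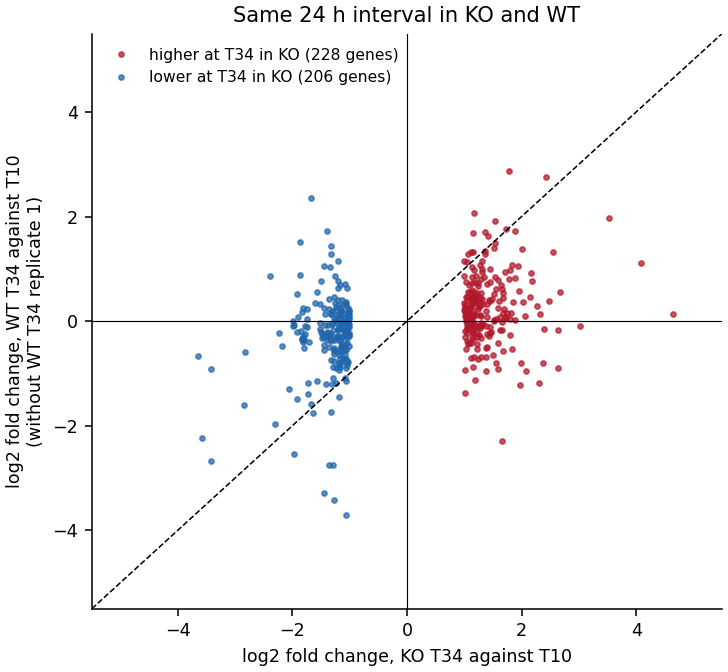
Log2 fold change of T34 against T10 in WT without WT T34 replicate 1 (vertical axis) against that in KO (horizontal axis), for the 434 genes with at least 2-fold change in KO that were also tested in WT. Red genes rose and blue genes fell in KO, and the dashed line marks equal change. Most points lie closer to the horizontal axis than to the dashed line, with medians of 0.20 and -0.21 in WT.

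Of the genes printed by identifier, ENSRNOG00000007319 went from 45.2 ± 4.95 to 67.3 ± 1.10 CPM in WT (SD, n = 3 each), and its log2 change was larger in KO by 2.08 (adjusted p 2.56e-05 by edgeR). ENSRNOG00000005711 went from 2.15 ± 0.238 to 5.13 ± 0.703 CPM in WT (SD, n = 3 each), and its change was larger in KO by 1.29 on the log2 scale (adjusted p 0.00237 by edgeR). In WT, as in KO, every T34 library lay above every T10 library for these genes, and below it for ENSRNOG00000012772. In WT alone, the adjusted p of these 3 genes by edgeR was 0.145, 0.0744 and 0.093 with WT T34 replicate 1. Without that library it was 0.00247, 0.000641 and 3.72e-05. ENSRNOG00000012772 went from 85.4 ± 0.973 to 41.1 ± 8.63 CPM in WT (SD, n = 3 each). Its log2 change in KO minus that in WT was -2.39 (adjusted p 0.000179 by edgeR), and its KO level was above that of WT at T10 and below it at T34. For ENSRNOG00000006589 the difference was -3.51 and did not pass the test (adjusted p 0.0785 by edgeR). Without WT T34 replicate 1 the differences of these 4 genes, in the order given, were 2.09, 1.21, -2.53 and -2.98, and the last again did not pass (adjusted p 0.0594 by edgeR).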

How the data were processed

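Per the labels' protocols, total RNA was sequenced as strand-specific libraries with paired reads of 150 bp. The authors deposited raw counts per gene for each library, whole numbers without normalization, made with featureCounts per the submitters' processing notes. The aligner, genome build, annotation, strand setting and gene filter are not given in the sources used here. Reads of overlapping genes or near-identical copies may have been split, so such genes have uncertain levels. Columns were matched to samples by the labels' descriptions.

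KO T34 was tested against KO T10 in R 4.3.3 with edgeR 4.0.16 (quasi-likelihood F test, TMM scaling, filterByExpr, which removed 30 of 13776 genes) on these 6 libraries. Adjusted p-values are Benjamini-Hochberg values over all genes tested, and genes were called under 0.05. The difference from WT was an interaction in the 12 libraries of both genotypes at T10 and T34. T26 and T30 were each set against the mean of T14, T18 and T22 in the 15 other KO libraries. Differences among T14, T18 and T22 were tested in their 9 libraries. Log2 levels used a prior count of 1. The scripts were tested on simulated counts with 100 genes changed 1.5-fold and 100 changed 2-fold. For KO T34 against T10, 84% and 98% of these were called, with 17 false calls. For the KO minus WT difference, 0% and 2% were called with WT T34 replicate 1, with 0 false calls. Without that library 67% and 86% were called, with 12 false calls. In that trial of the scripts, the test of this difference with WT T34 replicate 1 missed most changes of these sizes. Whether it did so in the deposited counts was not tested. No replicate pair of KO T10 or T34 agreed within sampling noise (chi-square per degree of freedom of 9.13 or more in the 6 pairs). None was therefore treated as a repeat reading of another library, and each was counted once. This check cannot tell separate cultures from separate library preparations.

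The genes named were to be the highest and lowest fold changes among calls with at least 10 CPM, no overlap between groups and a symbol. With no symbols paired, the symbol clause was dropped and 2 in each direction are printed. Gene lists, cell type markers and promoter motifs, which need symbols, were not used here. The comparison, the rule and the tests were chosen with earlier results of these data known, and the tests on the 15 other KO libraries were added after the data were seen. Alternatives were other scalings and filters, DESeq2 1.42.0, a replicate block, larger sets of libraries in the fit and leaving out each library.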

Additional observations from a re-analysis of the deposited data

Results flagged for a closer look

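For 1418 genes the 24 h change of KO cells differed from that of WT cells by a test of the difference itself (edgeR interaction, adjusted p under 0.05). Among the genes printed by identifier, the log2 change in KO minus that in WT was 2.08 for ENSRNOG00000007319, 1.29 for ENSRNOG00000005711 and -2.39 for ENSRNOG00000012772. WT T34 replicate 1, which stands apart, is in these values. Without it the differences were 2.09, 1.21 and -2.53, with adjusted p of 1.42e-08, 8.79e-05 and 8.26e-09 by edgeR.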

How the results depend on the processing

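Alternatives gave 180 values for 11 results, and none reversed a direction. All 60 alternative values for the 4 genes printed by identifier had the main sign and call, and the value furthest from its main one was -2.01 for ENSRNOG00000006589 without KO T10 replicate 1. The count for KO T34 against T10 was 635 when a change beyond 1.5-fold was required, a stricter test, and 4684 with all 42 libraries in the fit. The count at 2-fold or more was 190 among genes of at least 10 CPM, where fewer genes were tested. The share of called genes higher at T34 was 58.5% with library totals and 53.7% with upper quartile scaling, against 49.6% with TMM. The count for the KO minus WT difference was 2504 with DESeq2, 5077 with all 42 libraries and 834 to 4888 with libraries left out. At T26 the count was 207 to 1848 with libraries left out. Among T14, T18 and T22 it was 245 with DESeq2, 8 with all 21 KO libraries in the fit and 16 to 47 with libraries left out. For the other shifts the cause was not tested. The deviations of same-numbered KO T10 and T34 libraries had correlations of 0.04, 0.03 and 0.02, against -0.033 to 0.007 for the other pairs. Each library thus correlated best with its own number, though weakly. Whether the numbers mark a pairing cannot be told from 3 libraries at each time. With the replicate number as a block, 7489 genes were called for KO T34 against T10 and 1243 for the KO minus WT difference. Alternatives for the gene lists were not run.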

Other observations

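Some genes were called at T30 in KO and not for T34 against T10. The baselines differ, T14 to T22 for T30 and T10 for T34, so a return after T30 was not tested. Of the 6539 genes not called for KO T34 against T10, 1154 (17.6%) were called at T30 against T14 to T22, and 1431 (21.9%) without T30 replicate 1. Over all genes the shares called were 42.3% and 49.6%. Of the 1431, 187 had changed by at least 1.5-fold at T30. For 29 of the 187, the 95% interval of T34 against T10 lay within 1.5-fold.

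Calls of at least 2-fold whose libraries overlapped were rare at 10 CPM and above, with 2 genes, both lower at T34. For 1 of them, KO T10 replicate 1 had 4.00 CPM against 20.4 and 23.9 CPM in replicates 2 and 3, and the T34 libraries had 4.08 to 5.23 CPM. For the other, KO T34 replicate 3 had 28.6 CPM against 6.64 and 6.67 CPM in replicates 1 and 2, and the T10 libraries had 27.2 to 41.6 CPM. These levels are scaled over the 6 libraries.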
